A study of Mus musculus with 8 samples.

Results

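The retinoic acid pathway was examined in common myeloid progenitors (CMPs) of young and old mice through 9 genes, which are Aldh1a1, Aldh1a2, Aldh1a3, Aldh1a7, Rara, Rarb, Rarg, Rxra and Cyp26b1. They are read by 13 of the 55681 probes on the array and make up 9 of its 34797 gene names. The genes were selected on measured values of these same arrays, Aldh1a1 for its higher signal in old CMPs and the others as members of the same pathway, so their differences between ages are given as a description without a test. CMPs are bone marrow progenitors that give rise to the myeloid lineages, and they were sorted by flow cytometry as Lin-, cKit+, Sca-1-, CD34+, FcγR low cells. All mice were wildtype C57BL/6J animals, untreated and housed free of pathogens, and the methods describe mice of both sexes. Young mice were 2 to 3 months old and old mice 22 to 24 months old by the sample labels, while the series text gives 3 to 4 and 22 to 26 months. There were 4 arrays of young CMPs, numbered 3 to 6, and 4 arrays of old CMPs, numbered 2 to 5. The paper states that the mice were analysed individually, but it names fewer mice per age than there were arrays. Nothing in the labels says which arrays come from which animal, so the spread between arrays may be partly technical.

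All values below are log2 signals relative to the 75th percentile of the array, so that 0 is the level of a fairly bright spot and 1 unit is a 2-fold step. Signals of different probes are not comparable with each other as levels. On the arrays, between 55.6% and 63.2% of probes were well above background in young CMPs and between 57.3% and 60.5% in old CMPs. Each of the 2 slides held 2 young and 2 old arrays, and every young array lay in the first row of its slide and every old array in the second, so row and age cannot be told apart. The genes of the CMP gate, Kit and Cd34, were well above background on all 8 arrays, and their summed signal overlapped between ages, at 95.5 to 124 times the 75th percentile in young and 84.3 to 111 times in old CMPs. Cd34 made up most of this sum, with log2 means of 6.75 in young and 6.54 in old CMPs. Kit had means of 2.70 and 3.01, and each gene overlapped between ages. Ly6a, which encodes Sca-1, was also well above background on all 8 arrays, and all its old arrays were below all its young ones, at means of -0.85 and -0.12.

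Retinoic acid is made from vitamin A in a pair of oxidation steps. Retinol is first oxidised reversibly to retinal, and retinal is then oxidised irreversibly to retinoic acid by the retinaldehyde dehydrogenases of the Aldh1a family. Retinoic acid binds the receptors Rara, Rarb and Rarg, which sit on DNA as heterodimers with the Rxr receptors, and it is broken down by the Cyp26 enzymes. In the bone marrow, retinoid signalling is known for its role in granulocytic differentiation and in stem cell maintenance, and aldehyde dehydrogenase activity is widely used to sort primitive blood cells.

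Aldh1a1 and Aldh1a7 are close relatives that lie next to each other on chromosome 19, so the sequences that the array reads for each are shown first. The 60-base probes of both genes were compared by script, and the longest run of bases in common was 8. Below are 30 bases of each probe around that run, which is in capitals, at chr19:20717788-20717817 for Aldh1a1 and chr19:20767583-20767612 for Aldh1a7 in the mouse build mm9, each written on the strand of its gene, plus for Aldh1a1 and minus for Aldh1a7.
Aldh1a1 probe: ccctcagtgacTCCTTGAAgtactcaccac
Aldh1a7 probe: tTCCTTGAActatgtaccatgcatgataac
None of the 12 other probes of the 9 genes shared more than 9 bases in a row with the Aldh1a1 probe. By the array design, the Aldh1a1 probe begins at base 1843 of its transcript and the Aldh1a7 probe at base 1890. No annotation of build mm9 was used here, so the exon or UTR of the probes is not stated.

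The bases before the gene starts were compared next, by alignment as well as by the longest run, whereas the probes were compared by the run alone. RefSeq lists 2 starts for Aldh1a1 and 1 for Aldh1a7 (GRCm38.p6), and the 250 bases before the second Aldh1a1 start matched those of Aldh1a7 at 176 of 268 aligned positions (65.7%), against 140 of 275 (50.9%) for the first start. The same alignment of the Aldh1a1 windows with those of Aldh1a2 and Rarb gave 37.7% to 46.2%. The longest identical run of the second Aldh1a1 start and Aldh1a7 covered 65 bases and began 94 bases before the start of both genes. It is in capitals in the sequences of the second Aldh1a1 start, chr19:20601718-20601967 on the plus strand, and of Aldh1a7, chr19:20727557-20727806 on the minus strand.
Aldh1a1 promoter: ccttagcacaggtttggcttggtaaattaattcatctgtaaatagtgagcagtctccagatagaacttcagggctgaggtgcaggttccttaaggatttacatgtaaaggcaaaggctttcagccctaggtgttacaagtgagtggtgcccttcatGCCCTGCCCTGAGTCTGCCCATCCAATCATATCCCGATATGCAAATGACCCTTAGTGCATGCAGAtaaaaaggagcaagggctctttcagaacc
Aldh1a7 promoter: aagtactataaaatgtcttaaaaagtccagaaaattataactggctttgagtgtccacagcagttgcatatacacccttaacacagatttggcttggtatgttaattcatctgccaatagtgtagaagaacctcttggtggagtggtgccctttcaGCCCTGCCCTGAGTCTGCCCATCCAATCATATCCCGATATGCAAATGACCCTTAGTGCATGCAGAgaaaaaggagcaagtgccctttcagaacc
The run includes the letters CCAAT, the core of a common promoter box, which were searched on both strands and found in 33.8% of the 32851 promoter windows of the same length. Rarb is the textbook case of a gene that retinoic acid receptors regulate through a direct repeat in the promoter, and its window is shown for that element. The script found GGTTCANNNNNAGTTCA, in capitals below, starting 53 bases before the Rarb start at chr14:16575477-16575726 on the minus strand (GRCm38.p6).
Rarb promoter: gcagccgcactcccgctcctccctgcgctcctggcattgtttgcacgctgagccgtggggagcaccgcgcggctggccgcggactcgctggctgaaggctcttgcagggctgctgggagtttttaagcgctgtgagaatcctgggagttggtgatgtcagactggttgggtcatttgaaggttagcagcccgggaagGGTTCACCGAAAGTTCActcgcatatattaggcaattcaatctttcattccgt
Only 2 of the 32851 windows (0.00609%) held this motif on either strand, and 3 (0.00913%) held the related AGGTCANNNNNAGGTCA, none of them among the 14 windows of the 8 matched members, all but Aldh1a3. Of the single hexamers, which also match inside those repeats, AGGTCA was found in 14% of all windows, the form GGTTCA in 8.85% and the form AGTTCA in 11.8%. Neither Aldh1a1 window nor the Aldh1a7 window held any of the 3. A match or its absence describes these letters in these windows and no more.

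Aldh1a1, the retinaldehyde dehydrogenase known as a marker of primitive blood cells, had by far the most distinct values of the set. On the young arrays 3, 4, 5 and 6 its log2 signal was 0.71, -0.47, -0.26 and 0.26, and on the old arrays 2, 3, 4 and 5 it was 3.37, 2.99, 3.01 and 3.31. The ages did not overlap, all old arrays were high and all young arrays low, and 2.29 log2 units separated the lowest old array from the highest young array. Before scaling, the deposited intensities were 679.7, 408, 294 and 616 in young and 5367, 2822, 2327 and 4192 in old CMPs, so the probe was measured well above background at both ages. Young CMPs averaged 0.06 ± 0.53 (SD, n = 4) and old CMPs averaged 3.17 ± 0.20 (SD, n = 4). The difference of 3.11 (SE 0.27) is an 8.64-fold higher signal in old CMPs. It was 3.15 among the arrays of the first slide and 3.07 among those of the second.

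**Figure D1:**
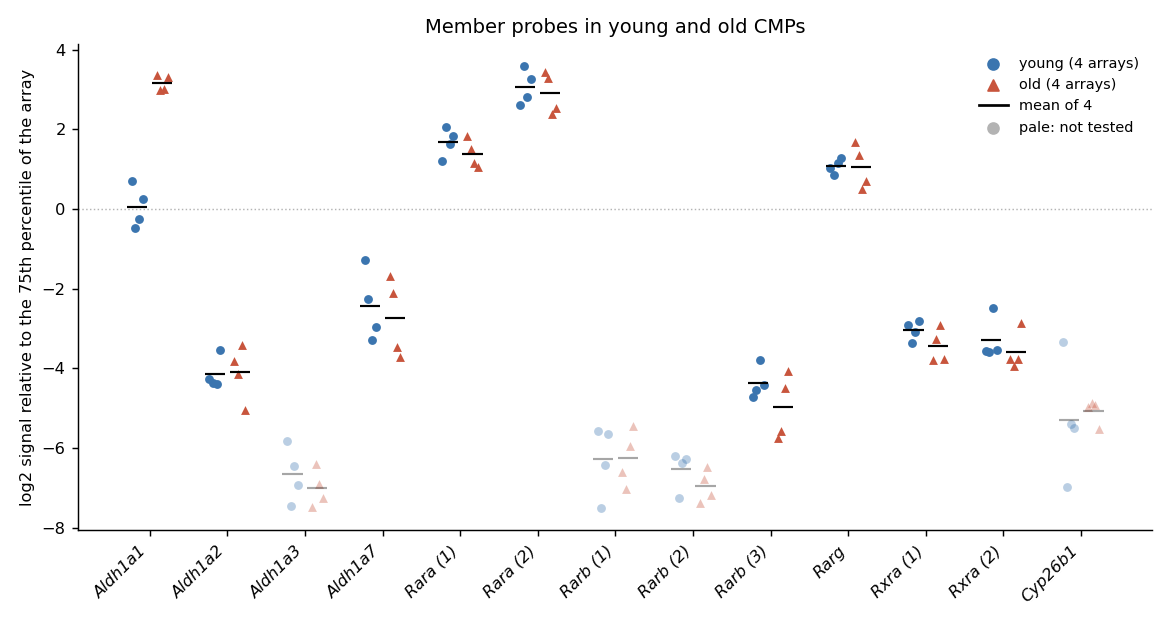
Log2 signal of the 13 member probes, relative to the 75th percentile of the array, on the 4 young arrays (blue circles) and 4 old arrays (red triangles), with black bars for the means and pale symbols for probes too dim to be tested. Numbers in brackets separate probes of one gene in the order of their probe names. The 4 old arrays lie above the 4 young arrays for Aldh1a1 only, with means of 3.17 and 0.06, and the levels of different probes are not comparable.

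Of the 9 genes, 7 had a probe that could be tested, that is, one with a signal well above background on 4 or more of the 8 arrays. By the rule used for all genes (limma, Benjamini-Hochberg adjusted p under 0.05 and at least 1.5-fold), 1 of these 7 was called higher in old CMPs, which was Aldh1a1, against 0.207% of all gene names tested, and 0 were called lower, against 0.0432%. The ages did not overlap for 1 of the 9 tested member probes, with old above young, while 2.86% of all probes tested had every old array above every young one and 1.57% every old array below. Since Aldh1a1 was chosen from this contrast, nothing is read from these shares or from the ranks that follow. Among the 48 gene names called higher, Aldh1a1 ranked 10 by log2 difference, and among the 24 of them measured well above background on all 8 arrays it ranked 2. The other 8 tested probes overlapped between ages. Of the 9 differences 7 were below 0, with Rara and Rxra each counted by a pair of probes. Over all gene names tested, 12136 of 23161 were below 0.

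The close relative Aldh1a7 had no such split. Its log2 signal was -1.28, -2.27, -3.28 and -2.95 on young arrays 3 to 6 and -1.67, -2.12, -3.46 and -3.72 on old arrays 2 to 5. The ages overlapped over nearly their whole range, and the highest values were those of young 3, old 2 and old 3. The difference was -0.30 (SE 0.54), with 0.20 on the first slide and -0.79 on the second. Aldh1a7 was well above background on all 8 arrays, so a level was measured at both ages. Its gene lies 49489 bases from Aldh1a1 with 0 RefSeq genes between them (GRCm38.p6).

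The chromosomal neighbourhood of Aldh1a1 was only partly measured. Within 1 Mb on either side, the array held 10 further gene names that RefSeq places there, of which 4 were tested. Of these 0 were called by limma, with 0.207% called higher and 0.0432% lower among all gene names. Anxa1, which encodes annexin A1, differed by 0.02 (SE 0.29, adjusted p = 0.998), Zfand5 by 0.20, and Gda, a guanine deaminase, by -0.19. The fourth was 1110059E24Rik with -0.20, so the 4 differences lay between -0.20 and 0.20.

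The other enzymes that make retinoic acid were dim. Aldh1a2, the main retinaldehyde dehydrogenase of the embryo, read -4.26, -4.35, -4.38 and -3.53 in young and -3.82, -4.13, -3.40 and -5.04 in old CMPs. The ages overlapped, and the probe was well above background on 3 arrays of each age. The difference was 0.03 (SE 0.35), and it had opposite signs on the slides, -0.63 and 0.70. Aldh1a3, a retinaldehyde dehydrogenase of epithelia, was well above background on no array, with values from -7.45 to -5.82 in young and from -7.47 to -6.40 in old CMPs.

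Among the receptors, Rara was read by a pair of probes. The first gave 1.22, 2.05, 1.63 and 1.84 in young and 1.83, 1.51, 1.16 and 1.07 in old CMPs, and the second 2.61, 3.59, 2.82 and 3.27 in young and 3.44, 3.28, 2.38 and 2.54 in old CMPs. Both overlapped between ages, with differences of -0.29 (SE 0.25) and -0.16 (SE 0.31). In both, old 2 was the highest of the old arrays. Rarg, the receptor known from primitive blood cells, read 1.03, 0.85, 1.17 and 1.27 in young and 1.68, 1.37, 0.50 and 0.72 in old CMPs. Its old arrays spread on both sides of the young ones, with 2 above and 2 below all 4, and the difference was -0.02 (SE 0.27).

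Rarb, which is induced by retinoic acid in many cells through the repeat shown above, was barely detected. Of its 3 probes, 2 lie in one transcript and were well above background on no array. The third reads another transcript further upstream on the chromosome and was well above background on 4 young arrays and 1 old array. It gave -4.73, -4.53, -3.79 and -4.40 in young and -5.75, -5.56, -4.49 and -4.07 in old CMPs. The ages overlapped, as old 5 was higher than 3 of the young arrays, and the difference was -0.61 (SE 0.39).

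Rxra, the shared partner of these receptors, was dim but measured on all 8 arrays by both of its probes. The first gave -2.90, -3.36, -3.09 and -2.80 in young and -3.80, -3.26, -2.91 and -3.77 in old CMPs, a difference of -0.39 (SE 0.24). The second gave -3.57, -3.58, -2.48 and -3.53 in young and -3.75, -3.95, -3.75 and -2.85 in old CMPs, a difference of -0.29 (SE 0.32). Both overlapped between ages, and in the second probe young 5 and old 5 stood above the other 6 arrays, which lay close together.

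Cyp26b1, an enzyme that breaks down retinoic acid, was well above background on young 3 alone. Its values were -3.34, -6.97, -5.40 and -5.48 in young and -4.97, -4.87, -4.91 and -5.52 in old CMPs. The old values lay within the wide spread of the young ones, and no old array was well above background. Young 3 was also the young array with the highest Aldh1a1 and Aldh1a7.

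**Figure D2:**
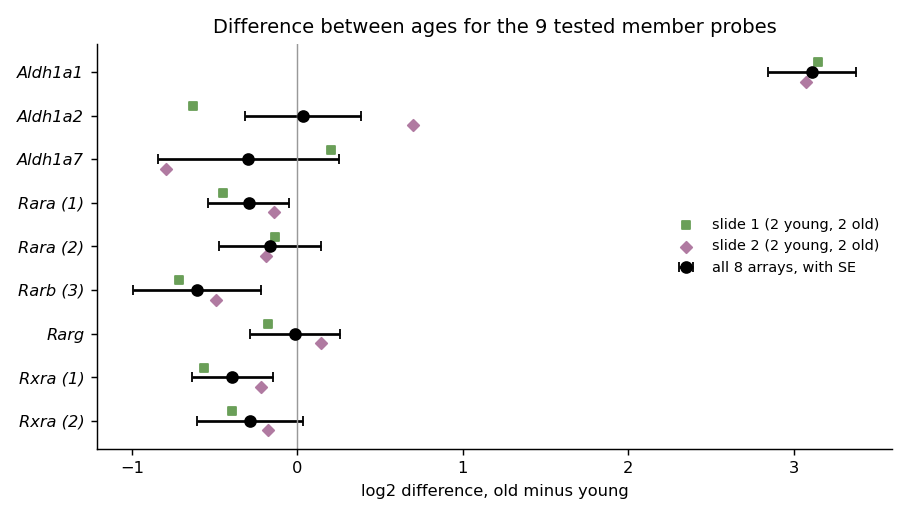
Log2 difference, old minus young, of the 9 tested member probes, with black points and bars for all 8 arrays and the standard error of the limma fit, and coloured symbols for the arrays of each slide. Aldh1a1 lies at 3.11 with both slides next to it, while the other 8 probes lie between -0.61 and 0.03.

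The rest of the pathway was described through 67 further genes, all of them on the array, of which 44 were tested and 16 were well above background on no array. By limma, 0 of the 44 were called higher and 0 lower in old CMPs, with 0.207% and 0.0432% of all gene names tested as the background. At an unadjusted p under 0.05 in either direction, 6 of the 44 passed, against 6.62% of all gene names tested. The differences were evenly split, 22 above and 22 below 0, with a median of -0.01, against -0.01 for all genes tested. In 2 of the 44 the old arrays were all above the young ones, against 2.86% of all probes tested.

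Genes that respond to retinoic acid in textbook systems held both of these. Tgm2, tissue transglutaminase and a classic retinoic acid target in myeloid cells, read -0.29, 0.85, 0.64 and 0.9957 in young and 2.15, 1.97, 1.69 and 2.12 in old CMPs. Its old arrays were all above its young ones and young 3 was far the lowest. The difference was 1.44 (SE 0.28), or 2.71-fold, and did not pass the limma test (adjusted p = 0.120). Its other probe (A_55_P2034110) also had every old array above every young one. That probe differed by 1.22 (SE 0.23) and did not pass either (limma adjusted p = 0.109). With normexp background correction Tgm2 was called higher. Bhlhe40, a circadian transcription factor, read 0.43, 1.14, 0.49 and 0.74 in young and 1.40, 1.29, 1.59 and 1.35 in old CMPs, a difference of 0.71 (SE 0.20, limma adjusted p = 0.333). Cd38, an ectoenzyme induced by retinoic acid in myeloid leukaemia cells, differed by 0.80 (SE 0.32, limma adjusted p = 0.676), and its ages overlapped. Of the 14 genes in this group 9 were tested, with a median difference of 0.11.

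Upstream of the Aldh1a step, 15 of 22 retinol dehydrogenases and retinal reductases were tested, with 7 differences above and 8 below 0 and a median of -0.03. Dhrs3, which returns retinal to retinol and is itself induced by retinoic acid, had the largest at 0.68 (SE 0.30, limma adjusted p = 0.780). Its young values were 3.27, 2.53, 3.31 and 3.36 and its old values 3.65, 3.14, 4.00 and 4.41, so that old 3 lay within the young range. Rdh1 and Dhrs9 followed with -0.48 and -0.47. Rdh10, which carries out the retinol step in the embryo, differed by 0.04 (SE 0.25).

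Of 16 genes for uptake, binding and storage of retinoids, 8 were tested and 6 were well above background on no array, among them the retinol receptor Stra6 and the esterifying enzyme Lrat. Stra6l, a relative of Stra6, differed by -0.86 (SE 0.28, limma adjusted p = 0.443) and was the lowest of the whole list. Bco1, which cleaves carotene to retinal, differed by 0.39 (SE 0.33). The breakdown enzymes Cyp26a1 and Cyp26c1 were well above background on no array.

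The 12 tested receptors and coregulators other than the members lay closest together, between -0.49 and 0.19 with a median of -0.14. Ncoa1, a coactivator, had the largest difference at -0.49 (SE 0.26, limma adjusted p = 0.925), followed by the orphan receptor Nr2f2 at -0.21 and the coactivator Ncoa3 at -0.20. Rxrb and Rxrg, the other Rxr genes, differed by -0.10 (SE 0.19) and -0.12 (SE 0.24) and were well above background on all 8 arrays.

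Aldehyde dehydrogenases outside the Aldh1a family were compared because Aldh1a1 also clears toxic aldehydes. Of 17 genes 16 were tested, 1 was called higher in old CMPs and 0 lower, against the same background of 0.207% and 0.0432%, and the median difference was 0.07. The called gene was Aldh3a1, the corneal aldehyde dehydrogenase, and its call rests on the dimmer of a pair of nearly overlapping probes. The call was lost with normexp, the series table, no filter on dim probes or the replicate block, among other settings, and without young 4, old 2, old 3 or old 5. That probe (A_55_P2065562) read -4.14, -4.20, -3.90 and -3.69 in young and -2.13, -2.26, -2.67 and -2.40 in old CMPs, a difference of 1.62 (SE 0.20, limma adjusted p = 0.0129). The other probe (A_55_P2101216) read 1.42, 0.90, 2.37 and 1.81 in young and 1.73, 2.16, 1.51 and 1.40 in old CMPs, a difference of 0.08 (SE 0.31, limma adjusted p = 0.998). The values of the second probe overlapped fully, so the probes disagree and the difference of Aldh3a1 is uncertain. They start 7 bases apart and have 53 bases in common, which is why the first 30 bases of each are shown, with the bases in common in capitals, at chr11:61031864-61031893 and chr11:61031857-61031886 on the plus strand of mm9.
A_55_P2065562: CCTCTTGTTCTGCTGTTTGCTGAGCACAGA
A_55_P2101216: cctccccCCTCTTGTTCTGCTGTTTGCTGA
Aldh2, the mitochondrial enzyme for acetaldehyde, read 4.21, 3.56, 4.61 and 4.48 in young and 4.43, 4.48, 4.10 and 5.07 in old CMPs and differed by 0.31 (SE 0.28, limma adjusted p = 0.998). Aldh1l1, a folate enzyme, had every old array above every young array, as 2.86% of all probes tested did. Its difference of 0.77 (SE 0.32) did not pass (limma adjusted p = 0.724). Aldh3b1 had the largest difference in the other direction at -1.28 (SE 0.38, limma adjusted p = 0.372), and old 2 lay within its young range. Aldh1b1 differed by -0.57 (SE 0.29).

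**Figure D3:**
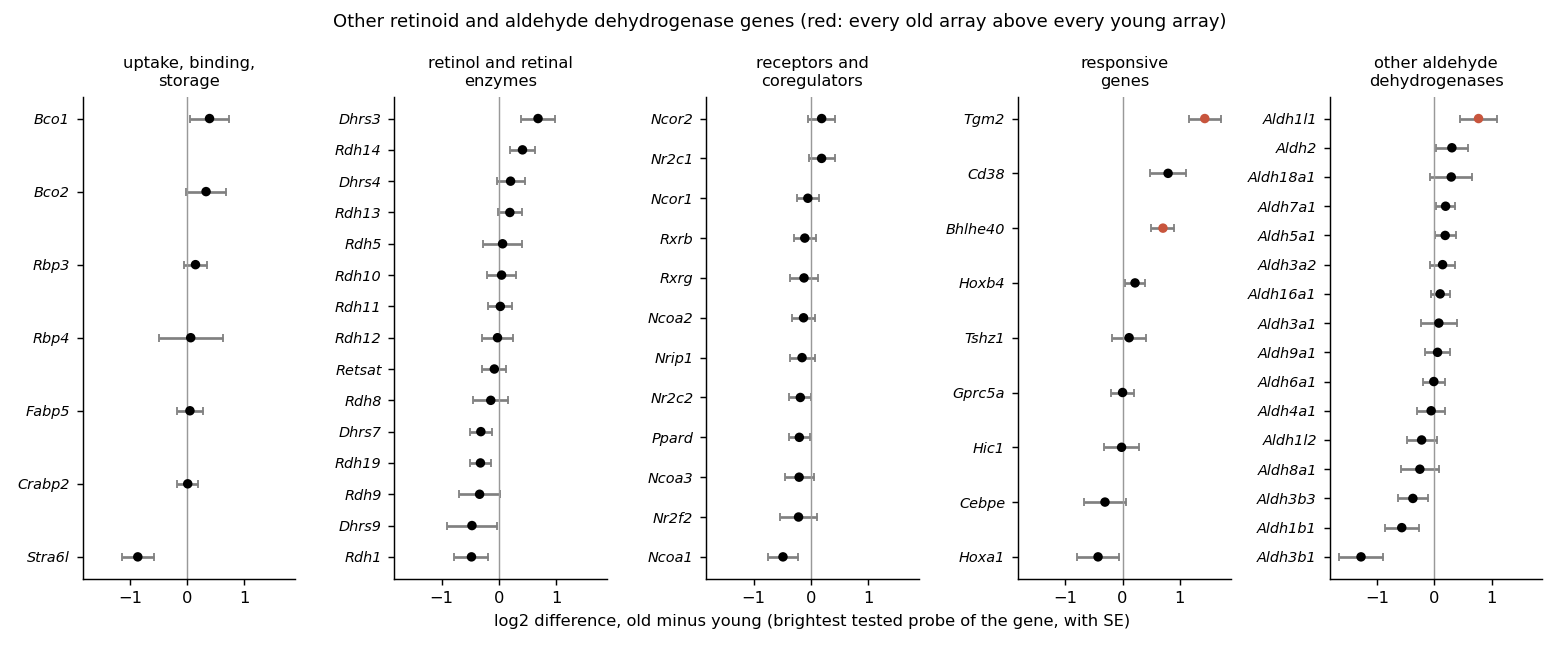
Log2 difference, old minus young, with the standard error of the limma fit for further retinoid genes and other aldehyde dehydrogenases, each at its brightest tested probe, grouped by role, with 1 tested gene not drawn. Red points mark genes with every old array above every young array at the drawn probe, which are Tgm2, Bhlhe40 and Aldh1l1. Most other points lie within 1 unit of 0. Aldh3a1 is drawn at its brighter probe (0.08), not at the dimmer probe that was called (1.62).

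The genes with the pattern most like that of Aldh1a1 were found by the root mean square difference between profiles, each centred on its own mean over the 8 arrays. The nearest was Aspa, aspartoacylase, at 0.374 log2 units. Next came an unnamed transcript of chromosome 1 (probe A_30_P01027577) at 0.405, and then Clec1a, a C-type lectin-like receptor, at 0.480. Il17rc, a subunit of the interleukin 17 receptor, and Evc2, a partner in the Evc complex of Hedgehog signalling, followed at 0.509 and 0.510. As these were chosen for likeness over the same 8 arrays, all 5 were higher in old CMPs by construction, with differences of 2.93, 2.66, 3.35, 2.41 and 3.94. Clec1a was well above background on no young array, so its difference is a bound of at least 3.13-fold. Aspa, the chromosome 1 transcript and Evc2 were each well above background on only 3 young arrays, so their young values and differences are less certain. Aspa read -4.38, -4.75, -5.89 and -4.75 in young and -1.69, -2.07, -2.09 and -2.19 in old CMPs, so that it, like Aldh1a1, was highest on young 3 among the young and on old 2 among the old arrays.

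**Figure D4:**
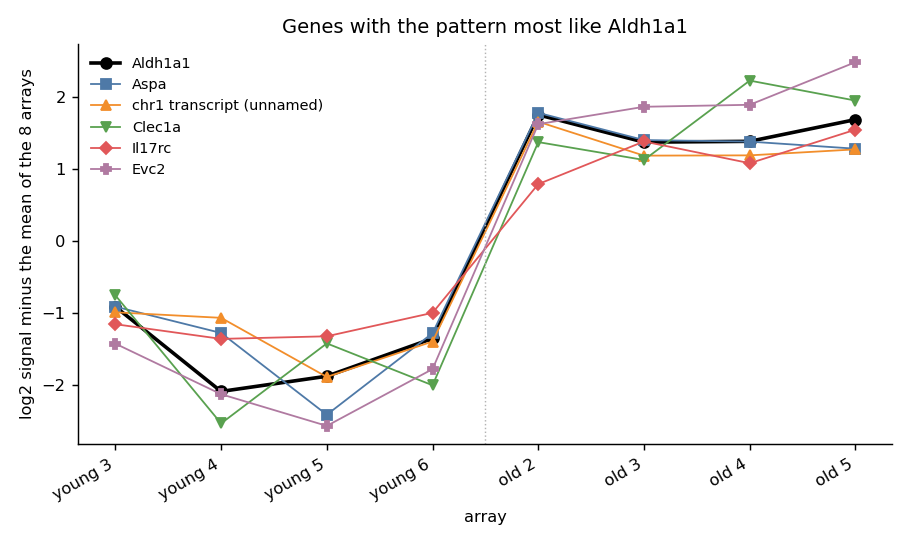
Log2 signal minus the mean of the 8 arrays for Aldh1a1 (black) and the 5 genes with the nearest profile, by array, with lines drawn only to tell genes apart. Aspa stays closest to Aldh1a1 with a root mean square difference of 0.374, and all 6 step up between the 4 young and the 4 old arrays.

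Markers of other blood and marrow cell types were read beside Aldh1a1. By its design the gate would remove haematopoietic stem cells (HSCs), which carry Sca-1, and, through the lineage antibodies against Gr-1, CD11b, TER-119, B220, CD4 and CD8, most mature granulocytes, monocytes, erythroid and lymphoid cells. In bulk RNA, more cells of a type and more RNA per cell cannot be told apart. Markers of megakaryocytes differed between ages in the same direction as Aldh1a1, though Gp6 and Clec1b overlapped. All 13 had a higher mean in old CMPs, where 47.6% of all gene names tested had a difference above 0, and the median difference was 1.16. Of the 13, 1 was called higher, the platelet glycoprotein gene Gp9, against 0.207% of all gene names tested. Their summed signal was 97.1 to 195 times the 75th percentile on young arrays and 282 to 377 times on old arrays, without overlap, leaving out Gp1bb, which had an outlier spot on old 5. Of the 13 markers 11 were well above background on all 8 arrays. Pf4, platelet factor 4, made up the largest part of the summed signal. It read 6.93, 5.71, 5.98 and 6.38 in young and 7.67, 7.31, 7.95 and 7.49 in old CMPs.

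Markers of HSCs, in which aldehyde dehydrogenase activity is known to be high, had higher means in old CMPs in 5 of 8 genes, with 0 called higher or lower against the same 0.207% and 0.0432%. Their sum was 14.5 to 19.5 in young and 22.1 to 26.4 in old CMPs, and the ages did not overlap, but Meis1, a homeobox gene also active in megakaryocytes, makes up most of it. Mecom was well above background on 1 young and 2 old arrays and Fgd5 on 3 young arrays and 1 old array, and Procr had a difference of -0.30. In the other direction, markers of granulocytes and monocytes had a median difference of -0.57 in 11 genes, 2 of them higher in old CMPs. The sum over 10 genes was 865 to 1170.5 in young and 607 to 739.5 in old CMPs, with Mpo as its largest part. Mast cell and basophil markers had higher means in 5 of 5, with 1 called higher (Fcer1a, an IgE receptor subunit) against 0.207% of all gene names, and their sums overlapped, as did those of erythroid, macrophage and dendritic, lymphoid, endothelial and stromal markers. The part of any of these cell types in the difference of Aldh1a1 was not tested.

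**Figure D5:**
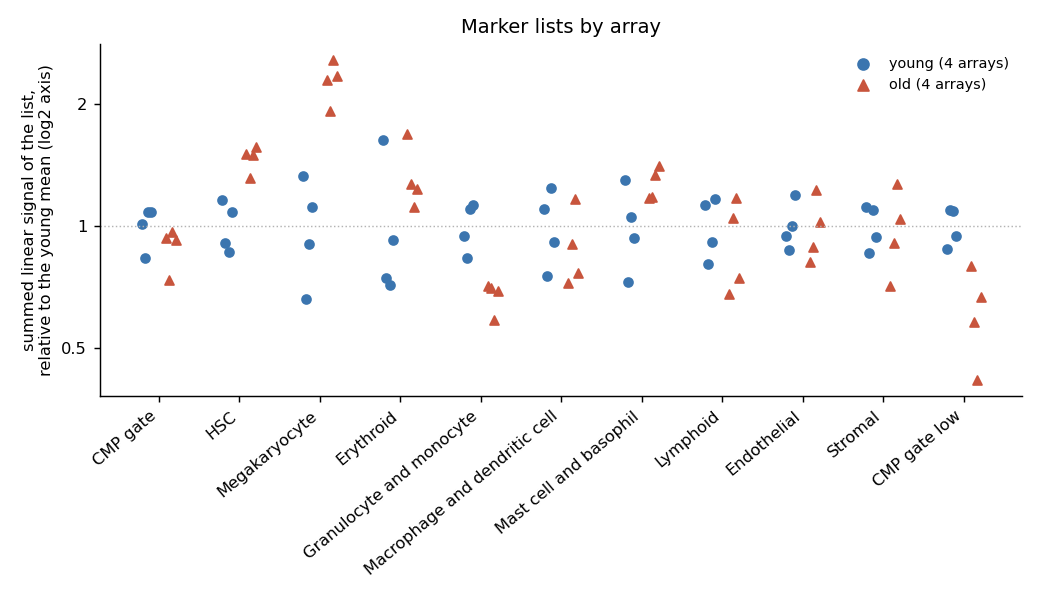
Summed linear signal of each marker list on the 4 young arrays (blue circles) and 4 old arrays (red triangles), divided by the mean of the young arrays and drawn on a log2 axis. The HSC and megakaryocyte sums of the old arrays lie above all young arrays, those of granulocyte and monocyte markers and of the genes low in the CMP gate lie below, and the rest overlap.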

How the data were processed

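RNA of sorted CMPs was labelled with 1 dye from 100 ng and hybridized to Agilent arrays, 4 young and 4 old. The methods name fewer mice per age than the deposited arrays, and all 8 arrays were used. Scans had been quantified by the authors in Feature Extraction 10.7.3.1. Their deposited files give for each spot an intensity on a linear scale, corrected for background, its mean and background intensity, and marks for control, outlier, saturated and well above background spots. A series table of log2 values, which the authors had shifted to the 75th percentile and centred, was deposited too and served as an alternative. Probe coordinates in the files are those of mm9.

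Log2 of the intensity minus the 75th percentile of the 59305 non-control spots was computed per array. Between 141 and 230 outlier spots per array were left out, none was saturated, and spots of a probe were averaged. The 33479 probes well above background on at least 4 of 8 arrays, from 23161 gene names, were tested with limma 3.58.1 (lmFit and eBayes) in R 4.3.3. Calls needed a Benjamini-Hochberg adjusted p under 0.05 and at least 1.5-fold, and the fit was tested on simulated data. A gene of a list was represented by its brightest tested probe, but counted as called by any probe. A lower bound took for each young array the higher of the probe's signal and the lowest signal well above background.

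The members and gene lists were chosen with earlier results of these data known. Named were all members, called genes, the 3 largest differences per list, the 5 nearest profiles, and, chosen after their values were seen, a few genes for their role in the pathway. A result under this rule is left out of the text and is not reported here. All 67 retinoid and 17 aldehyde dehydrogenase genes were found on the array by symbol or synonym. Promoters come from RefSeq (GRCm38.p6). Alternatives were normexp (offset 50), quantile normalization, the series table, other filters, and blocks for slide or replicate number. Further ones were leaving out each array, averaging a gene's probes, a t-test with and without adjustment, and limma unadjusted. The methods name no test for the arrays. The number of arrays limits the precision.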

Additional observations from a re-analysis of the deposited data

Results flagged for a closer look

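For 13 member probes and both ages, 26 groups of 4 arrays were examined for an array that stands apart, of which chance marks about 5%, and 3 were found. For Aldh1a2 in young CMPs, young 6 was the high array, and its gap to the next array took up 0.858 of the range of the group. For the second Rxra probe (A_55_P2074331) in young CMPs, young 5 was the high array, with a gap of 0.950 of the range. For Cyp26b1 in old CMPs, old 5 was the low array, with a gap of 0.850 of the range, and none of the 4 arrays was well above background.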

How the results depend on the processing

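The difference of Aldh1a1 stayed within 1 SD and above 0 in all 16 alternatives, from 2.93 to 3.33, and leaving out 1 array gave the same range. Some alternatives could not move it. It stayed at 3.11 under both filters, since its probe was well above background on all 8 arrays. The slide block, with ages balanced on each slide, and the averaging of a gene's probes, with 1 probe for Aldh1a1, left it at 3.11 too. The differences of the 6 other tested members stayed within 1 SD as well, though those of Aldh1a2, Aldh1a7, Rara and Rarg crossed 0 in some. Over all gene names, 48 were called higher and 10 lower. These counts were 75 and 21 with normexp, 54 and 3 with quantile normalization, 42 and 3 with the series table, 24 and 2 without a filter, 32 and 6 with probes well above background on all arrays, and 32 and 4 with the slide as a block. Leaving out 1 array gave 22 to 37 higher and 2 to 6 lower. Replicate numbers 3, 4 and 5 occur at both ages, and their deviations correlated at -0.09, -0.14 and 0.15. Nothing in the labels says whether the numbers pair the arrays, and these correlations cannot decide it. With the replicate block, 12 were called higher and 1 lower, and Aldh1a1 differed by 3.11. A t-test gave 0 and 0 after adjustment, and 590 and 359 without, a setting chosen after seeing the data. Limma without adjustment gave 777 and 631.

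Of the 44 other retinoid genes tested, 1 was called higher with normexp (Tgm2), against 75 over all gene names. By limma without adjustment 5 were higher and 1 lower, against 777 and 631 of the 23161 gene names tested. Among the 5 were Tgm2, Bhlhe40, Cd38 and Dhrs3, and the 1 lower was Stra6l. By the t-test without adjustment 3 were higher and 1 lower, against 590 and 359 over all gene names. Leaving out 1 array gave 0 to 0. Of the other aldehyde dehydrogenases, Aldh3a1 was the 1 called. The count was 0 with normexp, the series table, no filter, the replicate block and the adjusted t-test, and 0 to 1 when 1 array was left out, with 0 without young 4, old 2, old 3 or old 5. Of the 16 tested, 2 were higher and 1 lower by limma without adjustment, against the same 777 and 631. By the unadjusted t-test 1 was higher (Aldh3a1) and 1 lower (Aldh3b1), against the same 590 and 359. The causes of these shifts were not tested. Signal over background limits Aldh1a3, Cyp26b1 and Rarb, which were not well above background on most or all arrays of at least one age.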
